A study of Mus musculus with 12 samples.

Results

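The plasma cell and IgA secretion genes are 8 genes, Jchain, Mzb1, Sdc1, Prdm1, Irf4, Tnfrsf17, Derl3 and Pigr, taken by name from the 53715 genes of the count table through the mouse GENCODE M21 annotation. All 8 were found in the table, and all 8 were among the 16558 genes that passed the filter on low counts. RNA of ileal and colonic mucosa was sequenced from male C57BL/6J mice aged 8 weeks, with 3 libraries for each of 4 groups. The ileum control and colon control groups carry the floxed Slc39a8 allele on both chromosomes (Slc39a8-fl/fl), although the study's methods describe its controls as a mix of floxed, wild-type and Villin-Cre animals. The ileum KO and colon KO groups are Slc39a8-IEC KO mice (Slc39a8-fl/fl:Villin-Cre), in which the Villin promoter drives Cre in intestinal epithelial cells. Plasma cells are therefore not the cells in which Slc39a8, a metal transporter gene, was deleted. No group received a treatment.

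Plasma cells of the gut wall secrete IgA as dimers that are held together by the J chain, the product of Jchain. The transcription factors Irf4 and Prdm1 (Blimp-1) drive a B cell to become a plasma cell, Mzb1 and Derl3 serve the folding and quality control of secreted protein in its endoplasmic reticulum, and Tnfrsf17 (BCMA) is a receptor for survival signals on its surface. Sdc1 encodes syndecan-1 (CD138), which marks plasma cells but is also abundant on epithelial cells. Pigr is made by the epithelium itself and encodes the receptor that binds dimeric IgA at the basal side of the enterocyte and carries it into the lumen. Prdm1 and Irf4 are not restricted to plasma cells, since epithelial cells and T cells can express the former and several lymphoid cells the latter.

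The 5' flanks of 4 members are shown because these genes were lower in colon than in ileum in both genotypes, as described further on. The sequences are RefSeq's for GRCm38.p6 and give the 250 bases before the start site, read 5' to 3' on the strand of the gene. RefSeq's start of Prdm1 in the table used lies inside the gene as GENCODE draws it, far from the 5' end of the longest GENCODE span, and the start that the mucosa uses was not determined. The Prdm1 stretch lies at chr10:44458749-44458998 on the minus strand, Irf4 at chr13:30748983-30749232 on the plus strand, Derl3 at chr10:75893148-75893397 on the plus strand and Pigr at chr1:130826434-130826683 on the plus strand.
Prdm1: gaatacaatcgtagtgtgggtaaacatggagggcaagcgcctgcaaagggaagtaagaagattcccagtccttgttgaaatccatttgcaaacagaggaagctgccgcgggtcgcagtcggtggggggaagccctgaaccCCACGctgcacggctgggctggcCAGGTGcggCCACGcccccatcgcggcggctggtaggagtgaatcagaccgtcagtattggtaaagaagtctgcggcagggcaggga
Irf4: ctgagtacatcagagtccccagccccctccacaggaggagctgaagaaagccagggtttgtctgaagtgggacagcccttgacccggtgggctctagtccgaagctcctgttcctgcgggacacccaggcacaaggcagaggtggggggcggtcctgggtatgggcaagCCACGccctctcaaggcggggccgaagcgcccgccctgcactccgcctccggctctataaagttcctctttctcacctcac
Derl3: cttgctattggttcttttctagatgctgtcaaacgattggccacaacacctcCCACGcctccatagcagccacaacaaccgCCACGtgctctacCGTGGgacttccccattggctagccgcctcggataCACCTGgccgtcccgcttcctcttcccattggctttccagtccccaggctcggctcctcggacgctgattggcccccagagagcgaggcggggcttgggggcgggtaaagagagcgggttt
Pigr: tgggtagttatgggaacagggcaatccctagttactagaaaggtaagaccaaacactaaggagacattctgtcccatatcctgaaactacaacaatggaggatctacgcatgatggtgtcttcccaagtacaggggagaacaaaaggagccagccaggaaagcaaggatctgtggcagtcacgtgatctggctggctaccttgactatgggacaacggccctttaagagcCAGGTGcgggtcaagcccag
Capitals mark matches, on either strand, to 5 short motifs that were searched. These were TGACGTGG, the core of the unfolded protein response element; CCACG, part of the endoplasmic reticulum stress element, whose reverse complement overlaps the first motif; AAGTGAAA, a core of Prdm1 and interferon regulatory factor sites; GGAAGTGA, an Ets and interferon regulatory factor composite; and CACCTG, an E-box.

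The Derl3 flank held 3 matches to CCACG, which begin 198, 169 and 156 bases before the start site, and an E-box at 121 bases. Of 32851 flanks of this length, 28.3% held CCACG at least once and 2.13% held it at least 3 times. The Prdm1 flank held CCACG at 110 and 78 bases and the E-box at 87 bases before the start. The Irf4 flank held CCACG once, at 81 bases, and the Pigr flank held the E-box, found in 17.2% of flanks, at 20 bases. TGACGTGG (0.563% of all flanks), AAGTGAAA (1.36%) and GGAAGTGA (2.62%) were in none of the 7 flanks searched. The same search found 1 match to CCACG in the Sdc1 flank and no match in the Jchain and Tnfrsf17 flanks.

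In the annotation of GRCm38 (mm10), all 8 members are protein-coding. Jchain (ENSMUSG00000067149.6) spans 88519809 to 88527891 of chromosome 5 (minus strand), and Pigr (ENSMUSG00000026417.13) spans 130826684 to 130852249 of chromosome 1 (plus strand). Prdm1 and Derl3 are both on chromosome 10, from 44437177 to 44528501 and from 75893413 to 75895941. Irf4 is on chromosome 13 from 30749226 to 30766976, Sdc1 on chromosome 12 from 8771323 to 8793715 and Tnfrsf17 on chromosome 16 from 11313812 to 11320074. Mzb1 spans 35647267 to 35649367 of chromosome 18 (minus strand), where the annotation has a second gene, SPATA24, on the same strand that shares 57.2% of the exon bases of Mzb1. The ID of SPATA24 is not in the count table, and how reads from the shared bases were counted is not known. The values of Mzb1 are therefore less certain than those of the other 7 members, which share no exon bases with another gene.

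The library totals ran from 16749138 to 27903083 expected counts, and values are given as CPM, which are counts relative to the library total after scaling by edgeR's TMM factors. The targeted gene Slc39a8 was at 5.22 to 8.39 CPM in ileum control and 2.62 to 4.35 CPM in ileum KO libraries, and at 20.1 to 20.8 and 7.35 to 11.5 CPM in colon, so every KO library was below every control library of its tissue. The sum of 11 epithelial markers was 19800 to 24500 CPM in ileum and 10100 to 11500 CPM in colon. The sum of 8 smooth muscle genes was 1890 CPM or more in 10 libraries but 44.1 CPM in ileum control replicate 3 and 28.6 CPM in ileum KO replicate 1. These 2 ileal libraries, 1 of each genotype, also stood apart for several members, so results between tissues are given with all 12 libraries and, for the members, the lists and the genes whose call changed, with the other 10.

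Per length, Pigr was the most abundant of the 8 transcripts in every group. In ileum control libraries its level was 589 ± 204 CPM per kilobase of exon (SD, n = 3), followed by Jchain at 155 ± 106 and Sdc1 at 63.8 ± 7.23 CPM per kilobase. Mzb1 (6.21 ± 4.17) and Prdm1 (5.89 ± 3.07) came next on this scale and did not differ beyond their spread. Derl3 (1.24 ± 0.536), Tnfrsf17 (0.879 ± 0.608) and Irf4 (0.407 ± 0.226) were the least abundant, and each lay within the spread of its neighbour.

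In colon control libraries the order of the first 3 was the same, with Pigr at 257 ± 26.2 CPM per kilobase. Jchain (70.0 ± 12.4) and Sdc1 (69.6 ± 1.36) did not differ there beyond their spread. Prdm1 was at 1.64 ± 0.819, Mzb1 at 0.873 ± 0.253, Tnfrsf17 at 0.438 ± 0.0333, Derl3 at 0.229 ± 0.157 and Irf4 at 0.118 ± 0.0391 CPM per kilobase. In the KO groups Pigr reached 723 ± 297 in ileum and 343 ± 62.9 CPM per kilobase in colon, and Jchain 212 ± 154 and 85.5 ± 35.8. The rarest members rest on few reads. Tnfrsf17 had 1 to 29 rounded counts in a library, Derl3 3 to 75, Irf4 7 to 87 and Mzb1 15 to 241, whereas Jchain had at least 1528 and Pigr at least 17901.

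**Figure D1:**
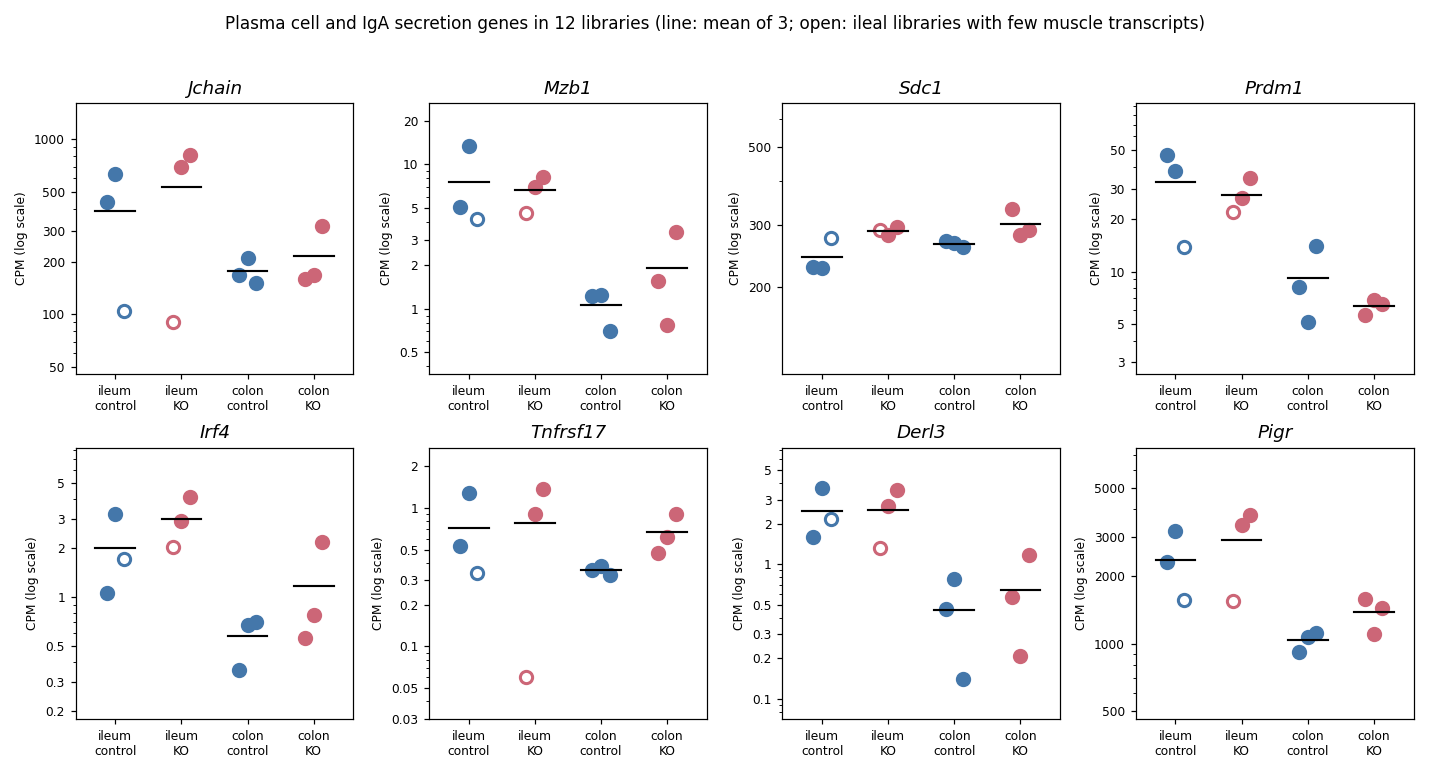
CPM on a log scale for each of the 8 genes in the 12 libraries, with 3 libraries in each group, the horizontal line at the group mean and open circles for ileum control replicate 3 and ileum KO replicate 1. For Jchain the open circles, at 104 and 91.1 CPM, lie below all 6 colonic libraries, while the other 4 ileal libraries lie above them.

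The comparison of colon with ileum asks how the members are distributed along the gut. In control mice 5 of the 8 members were lower in colon than in ileum and none was higher. These were Mzb1, Prdm1, Irf4, Derl3 and Pigr, by 2.29- to 7.09-fold. In Slc39a8-IEC KO mice the same 5 were lower, by 2.11- to 4.35-fold. A gene is called here at a Benjamini-Hochberg adjusted p under 0.1 in edgeR's quasi-likelihood test over all 16558 genes, and by that rule 19.6% of all genes were lower in colon in control and 20% in KO mice. The median log2 fold change of the members, colon minus ileum, was -1.48 in control and -1.34 in KO mice, and that of all genes was 0.02 and 0.01. In these bulk samples, fewer cells of a type and less RNA per cell cannot be told apart.

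Mzb1, a chaperone of the antibody-producing cell, was at 5.06, 13.4 and 4.21 CPM in the 3 ileum control libraries and at 1.23, 1.25 and 0.706 CPM in colon control. In KO mice it was at 4.59, 7.03 and 8.20 CPM in ileum and 1.55, 0.777 and 3.40 CPM in colon. Every ileal library lay above every colonic library of its genotype. The difference, colon minus ileum on the log2 scale with its standard error (SE), was -2.83 (SE 0.59, adjusted p = 0.00406) in control and -1.78 (0.56, adjusted p = 0.0335) in KO mice. Without ileum control replicate 2, the highest library, the difference in control mice was -2.12. In KO mice it was -2.49 without colon KO replicate 3, and the call was lost without colon KO replicate 1 (adjusted p = 0.102) or replicate 2 (adjusted p = 0.11).

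Derl3, which takes part in removing misfolded protein from the endoplasmic reticulum, was at 1.60, 3.67 and 2.17 CPM in ileum control and 0.461, 0.768 and 0.141 CPM in colon control libraries. The KO libraries were at 1.31, 2.70 and 3.55 CPM in ileum and 0.565, 0.207 and 1.16 CPM in colon. As for Mzb1, the tissues did not overlap in either genotype. On the log2 scale colon minus ileum was -2.43 (SE 0.69, adjusted p = 0.0211) in control and -1.94 (0.66, adjusted p = 0.046) in KO mice. In control mice it was -3.03 without colon control replicate 2. Among KO mice the value was -2.67 without colon KO replicate 3, and the adjusted p rose to 0.14 without ileum KO replicate 3, 0.127 without colon KO replicate 1 and 0.145 without colon KO replicate 2. The paralogs Derl1 and Derl2, which are made in many cell types, were also lower in colon in both genotypes, with log2 fold changes of -0.72 and -0.35 in control and -0.74 and -0.50 in KO mice.

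Prdm1, the repressor that ends the B cell program, was at 46.9, 38.0 and 13.8 CPM in ileum control and 8.19, 5.13 and 14.1 CPM in colon control libraries. It was at 21.9, 26.5 and 34.4 CPM in ileum KO and 5.65, 6.84 and 6.52 CPM in colon KO libraries. The control groups overlapped by 1 library, ileum control replicate 3, and the KO groups did not overlap. Prdm1 differed between tissues by -1.84 (SE 0.43, adjusted p = 0.00836) in control and -2.12 (0.44, adjusted p = 0.00403) in KO mice on the log2 scale. Prdm1 stayed past the threshold in both genotypes with any 1 library left out, the smallest difference being -1.50 in control and -1.93 in KO mice.

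Irf4, which induces Prdm1, was at 1.06, 3.22 and 1.70 CPM in ileum control and 0.358, 0.672 and 0.706 CPM in colon control libraries, without overlap. The KO values were 2.03, 2.93 and 4.12 CPM in ileum and 0.565, 0.777 and 2.16 CPM in colon, where colon KO replicate 3 reached the lowest ileal library. For Irf4 the log2 difference, colon minus ileum, was -1.77 (SE 0.59, adjusted p = 0.0422) in control and -1.36 (0.56, adjusted p = 0.0882) in KO mice. Both calls depended on single libraries. In control mice the adjusted p was 0.159 without ileum control replicate 2 and 0.135 without colon control replicate 1. For KO mice the adjusted p was 0.144 and 0.243 without ileum KO replicates 2 and 3, 0.113 and 0.109 without colon control replicates 2 and 3, and 0.236 and 0.247 without colon KO replicates 1 and 2, while without colon KO replicate 3 the log2 fold change was -2.16. Other scaling or filtering also ended the KO call, with adjusted p = 0.125 for upper-quartile factors, 0.176 for library size only, 0.121 with no filter on low counts and 0.102 from only the libraries compared. Among other interferon regulatory factor genes, Irf5 and Irf8 were lower in colon in both genotypes, and Irf7 was higher in control mice (log2 fold change 0.88, adjusted p = 0.0835) but not with the 10 libraries (0.78, adjusted p = 0.145).

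Pigr, the transporter of IgA across the epithelium, was at 2330, 3210 and 1570 CPM in ileum control and 917, 1070 and 1120 CPM in colon control libraries. KO libraries had 1550, 3390 and 3790 CPM in ileum and 1590, 1100 and 1450 CPM in colon. The control groups did not overlap, and in KO mice ileum replicate 1 was below 1 colonic library. Colon minus ileum was -1.20 (SE 0.34, adjusted p = 0.0204) in control and -1.08 (0.33, adjusted p = 0.0322) in KO mice, as log2 values. The KO call was lost without ileum KO replicate 3 (adjusted p = 0.119) or colon KO replicate 2 (adjusted p = 0.12). Most epithelial markers moved with it. Of 11, 8 were lower in colon in each genotype and 1, Cdx1, was higher, with Vil1 at -1.96 and Epcam at -1.10 in control mice. The part of these in the Pigr difference was not tested.

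Jchain and Tnfrsf17 were not called with all 12 libraries. Jchain was at 437, 632 and 104 CPM in ileum control and 91.1, 696 and 811 CPM in ileum KO libraries, against 167, 211 and 151 CPM in colon control and 160, 167 and 319 CPM in colon KO. Thus 4 ileal libraries were above all 6 colonic ones and the 2 with few muscle transcripts were below all 6. Jchain had a log2 fold change of -1.15 (SE 0.71, adjusted p = 0.257) in control and -1.31 (0.72, adjusted p = 0.196) in KO mice. Without ileum control replicate 3 it was -1.62 in control mice (adjusted p = 0.0819), and without ileum KO replicate 1 it was -1.81 in KO mice (adjusted p = 0.0347), so Jchain then passed.

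Tnfrsf17 was at 0.532, 1.28 and 0.340 CPM in ileum control and 0.358, 0.384 and 0.330 CPM in colon control libraries. It was at 0.0596, 0.899 and 1.37 CPM in ileum KO, where 1 count was found in replicate 1, and 0.471, 0.622 and 0.913 CPM in colon KO libraries. The tissues overlapped in both genotypes. Its log2 fold change between tissues was -0.98 (SE 0.79, adjusted p = 0.381) in control and -0.23 (0.74, adjusted p = 0.837) in KO mice. Of the other receptors for these survival ligands, Tnfrsf13b (TACI) was lower in colon in control (-1.81, adjusted p = 0.019) and KO mice (-1.38, adjusted p = 0.0517), and Tnfrsf13c did not pass the filter on low counts.

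Sdc1 had nearly the same level in both tissues. It was at 228, 226 and 275 CPM in ileum control and 270, 266 and 260 CPM in colon control libraries. Among KO libraries Sdc1 was at 290, 280 and 295 CPM in ileum and 333, 281 and 290 CPM in colon. Between tissues the fitted log2 value was 0.13 (SE 0.12, adjusted p = 0.468) in control and 0.06 (0.12, adjusted p = 0.728) in KO mice. Among the other syndecans, Sdc2 was higher in colon in control (1.68, adjusted p = 0.00212) and KO mice (1.86, adjusted p = 0.00112), and Sdc3 and Sdc4 did not pass. With the 10 libraries Sdc4 was also higher in colon in both genotypes (0.43, adjusted p = 0.0277, and 0.45, adjusted p = 0.0215) and Sdc3 in KO mice (0.99, adjusted p = 0.0329).

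With the 10 libraries that hold muscle transcripts, 7 of 8 members were lower in colon in control mice, where 22.0% of 16896 genes were, and 6 of 8 in KO mice, where 21.7% were. The members added were Jchain, at -1.62 (SE 0.28, adjusted p = 0.000966) in control and -1.80 (0.28, adjusted p = 0.000489) in KO mice, and in control mice Tnfrsf17, at -1.36 (0.52, adjusted p = 0.0651). The 2 ileal libraries left out were chosen for values seen in them, and in both Jchain and Tnfrsf17 were below the other 4 ileal libraries. Leaving them out therefore raises the ileal mean and narrows the spread by itself. The adjusted p-values do not take that choice into account. The differences of the 5 members already called were larger than with 12 libraries, for example -1.44 and -1.37 for Pigr and -2.23 and -2.25 for Prdm1. Sdc1 remained uncalled in both genotypes and Tnfrsf17 in KO mice (-0.74, adjusted p = 0.252). Separation of single libraries can be read beside these tests. In control mice 4 members were lower in every colonic than in every ileal library (20.4% of all genes), in KO mice 3 (24.9%), and in both genotypes 2, Mzb1 and Derl3 (17.0%). An exact two-sided permutation test of tissue within genotype gave p = 0.01 for Prdm1, Irf4 and Pigr and 0.21 for Jchain, and for Mzb1 and Derl3 it only restates their separation. The labels do not say whether ileum and colon came from the same mice, and all tests here treat the libraries as independent.

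**Figure D2:**
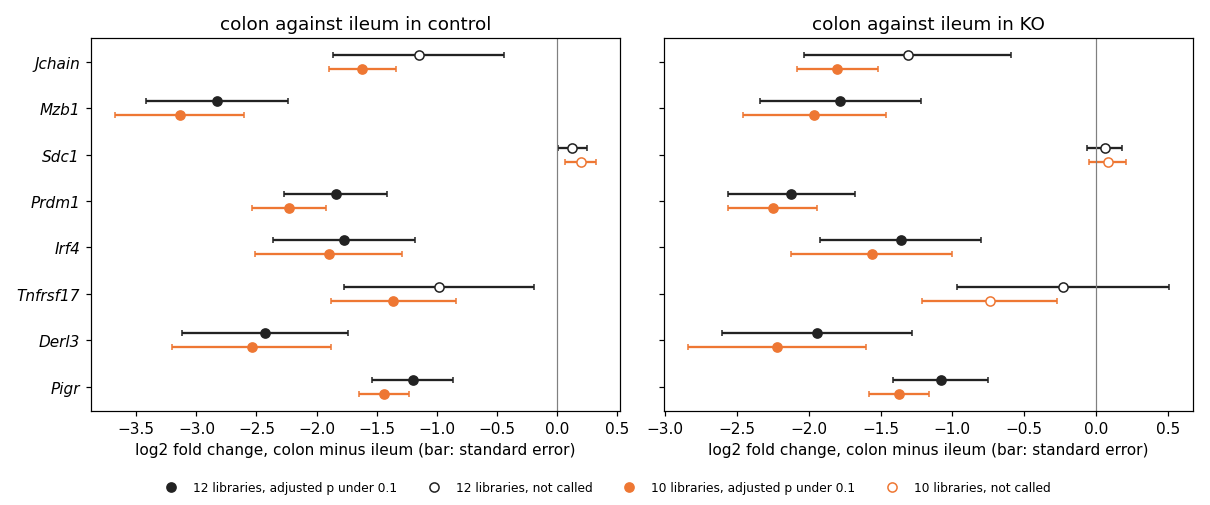
Log2 fold change of each gene, colon minus ileum, with its standard error, in control (left) and KO mice (right), from all 12 libraries (black) and from the 10 that hold muscle transcripts (orange), with filled circles for adjusted p under 0.1. Jchain moves from -1.15 to -1.62 in control mice and its error falls from 0.71 to 0.28, while Sdc1 stays near 0 in all 4 fits.

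Some other genes that plasma cells express were also lower in colon. Of 15 surface and regulator genes, 14 were tested, and 7 were lower in control and 8 in KO mice, with none higher in colon, where 16.2% and 17.1% of all genes were. Without the 2 libraries set apart, 8 were lower in control and 6 in KO mice. Ccr9, the receptor that guides IgA plasma cells to the small intestine, was lower by 2.59 (adjusted p = 0.00755) in control and 2.31 (adjusted p = 0.0119) in KO mice on the log2 scale. Tent5c, which stabilises immunoglobulin mRNA, was at -1.91 and -1.86. Unlike Jchain, it was higher in the 2 ileal libraries set apart, at 17.8 and 14.9 CPM, than in the other 4, at 7.39 to 14.4 CPM. The transcriptional coactivator Pou2af1 was at -2.43 and -1.66, and with the 10 libraries at -1.90 (adjusted p = 0.0449) and -1.11 (adjusted p = 0.201). Pou2af1 too was higher in the 2 libraries set apart (8.33 and 7.27 CPM) than in the other 4 (1.06 to 5.89 CPM). The chemokine receptor Cxcr4 was called with 12 libraries, at -2.25 and -2.22, but it was at 3.36 and 5.60 CPM in the 2 ileal libraries set apart, 0.625 to 1.28 CPM in the other 4 and 0.0941 to 0.660 CPM in colon. With the 10 libraries it was at -1.32 (adjusted p = 0.125) and -0.82 (adjusted p = 0.297). Cd38 and Ccr10 were among those that did not pass, and Fcrl5 was too low to test.

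Among the immunoglobulin constant regions 2 of the 10 tested were lower in colon in control mice, a share close to the 19.6% of all genes, and 3 in KO mice. Igha, the heavy chain of IgA, was at 288, 1380 and 266 CPM in ileum control and 86.8, 129 and 83.8 CPM in colon control libraries (log2 fold change -2.69, adjusted p = 0.0245). In the KO groups Igha was at 298, 961 and 1850 CPM in ileum and 128, 155 and 426 CPM in colon (-2.13, adjusted p = 0.0574). Igkc, the kappa light chain, was lower by 2.45 (adjusted p = 0.0273) and 1.80 (adjusted p = 0.0812) on the log2 scale. These 2 were the ones called in control mice and Ighm was the third in KO mice, and none was called higher. With the 10 libraries Igha, Igkc and the lambda region Iglc1 were lower in both genotypes, Ighg1 and Iglc2 in control mice, and Ighm in neither (adjusted p = 0.108 and 0.274). Gene segments of this family resemble each other, so reads may have been divided between them.

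Genes of protein folding and secretion, which both plasma and epithelial cells use, were lower in colon as well. Of 24, 19 were lower in control and 16 in KO mice and none was higher, with medians of -0.76 and -0.78. Without the 2 libraries set apart, 18 were lower in each genotype. Creld2 (-1.98), Manf (-1.92) and Hspa5 (-1.73), a pair of stress-induced luminal proteins and the chaperone BiP, had the largest differences in control mice. Xbp1, the factor that drives this program in plasma cells, was lower in control (-0.79, adjusted p = 0.00932) and did not pass in KO mice (-0.39, adjusted p = 0.143) except with the 10 libraries (-0.49, adjusted p = 0.0522).

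T cell markers were lower in colon too. Of 8, 7 were lower in control and 5 in KO mice with 12 libraries and 7 in each genotype with 10, with sums of 26.6 to 73.8 CPM in the ileal and 12.2 to 27.4 CPM in the colonic libraries. The B cell list depended on the 2 ileal libraries set apart. With 12 libraries 4 of 11 genes tested were lower in colon in each genotype, with medians of -2.56 in control and -2.22 in KO mice, and the defining marker Ms4a1 did not pass. With 10 libraries 3 of 10 were lower in each genotype, the medians were -0.33 and -0.58, and Ms4a1 was higher in colon in control mice (1.26, adjusted p = 0.0439). None of the 8 smooth muscle genes passed with 12 libraries, whereas with 10 libraries 3 were higher in colon in control and 5 in KO mice, against 19.9% and 21.5% of all genes. The part of these cell types in the members' differences was not tested. Signals that attract plasma cells differed by tissue. The epithelial chemokine Ccl25, the ligand of Ccr9, was at 450 to 1060 CPM in ileum and 10.4 to 14.2 CPM in colon (log2 fold change -5.88, adjusted p = 5.27e-07 in control mice), and the stromal chemokine Cxcl12 was higher in colon (1.27, adjusted p = 0.0387). Ccl28, which attracts IgA plasma cells in the large intestine, was at -0.02 (adjusted p = 0.974), and Madcam1 and Vcam1 did not pass.

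**Figure D3:**
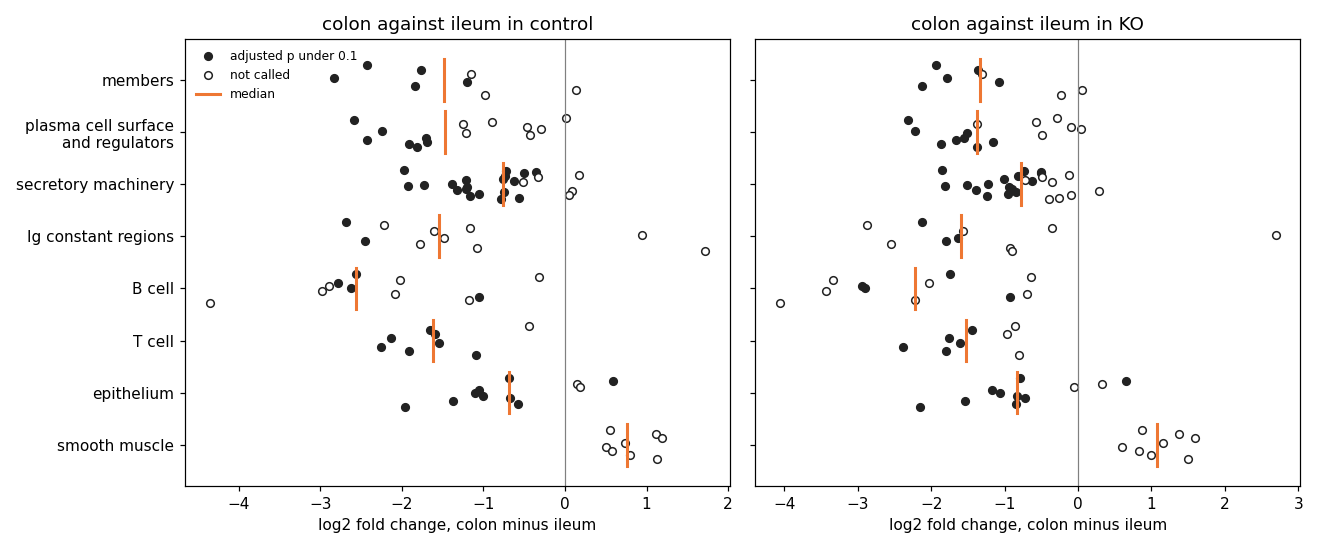
Log2 fold change, colon minus ileum, of each tested gene in 8 lists, in control (left) and KO mice (right), with filled circles for adjusted p under 0.1 and an orange line at the list median. In control mice the median is -1.48 for the members, -1.47 for plasma cell surface and regulator genes, -0.76 for secretory machinery and 0.76 for smooth muscle.

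Within ileum, the members split the 6 libraries in a way that did not follow genotype. In ileum control replicate 3 and ileum KO replicate 1, 5 of 8 members, Jchain, Mzb1, Prdm1, Tnfrsf17 and Pigr, were below all other 4 ileal libraries, as were 27.2% of all genes. Jchain was at 0.156 and 0.137 times the median of the other 4, and Pigr at 0.475 and 0.470 times. Sdc1 was at 1.08 and 1.14 times and within their range. No test was made of this split, because the 2 libraries were set apart for values seen in them.

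Markers of naive and follicular B cells went the other way in the same 2 libraries. Ms4a1 (CD20) was at 9.60 and 11.9 CPM there and at 0.611 to 0.758 CPM in the other 4, and 11 of 12 B cell genes were above the other 4, as were 23.2% of all genes. Ighm and Ighd, the heavy chains of naive B cells, were at 25.8 and 35.4 CPM and at 6.20 and 9.24 CPM, against 6.32 to 8.94 and 0.195 to 0.758 CPM. Igkc was at 149 and 155 CPM against 288 to 1080 CPM, so it moved with Jchain and not with Ighm. All 8 smooth muscle genes and 6 of 8 T cell genes were below the other 4 libraries. The sum of the secretory machinery genes was 4060 and 3980 CPM against 4100 to 4300 CPM, and that of the epithelial markers 19800 and 21000 against 20300 to 24500 CPM.

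**Figure D4:**
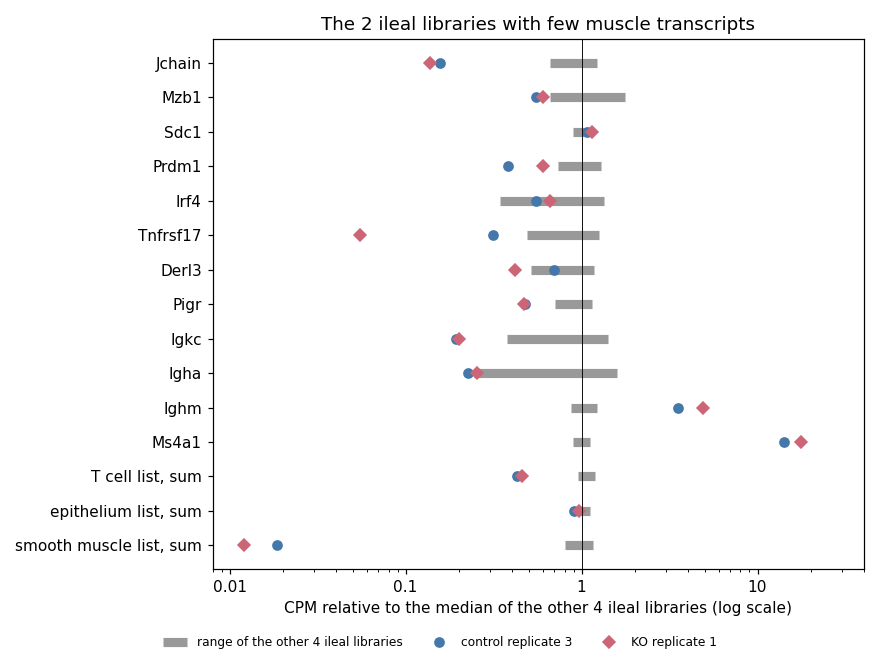
CPM of single genes and of summed marker lists in ileum control replicate 3 (circle) and ileum KO replicate 1 (diamond), divided by the median of the other 4 ileal libraries, whose range is the grey bar, on a log axis. Jchain (0.156 and 0.137) and Igkc (0.194 and 0.201) lie to the left of the bar and Ms4a1 (14.1 and 17.6) to the right.

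How the members varied together was described on log2 CPM after the mean of each group was taken away, as Pearson correlations over 12 libraries, which share depth and composition and carry no test. Among the members and constant regions, Jchain varied most like Igkc (r = 0.95), Tnfrsf17 (0.93), Iglc1 (0.92) and Pigr (0.91). Among 16557 genes these ranked only 319, 482, 696 and 784. The smooth muscle genes Des (0.97, rank 70), Myh11 (0.97, rank 71) and Acta2 (0.96, rank 137) were closer to Jchain than Igkc was. With the 10 libraries that hold muscle transcripts, Des was at 0.90, Myh11 at 0.55 and Acta2 at 0.65. With the same 10 libraries Pigr was at 0.39, Iglc1 at 0.28 and Tnfrsf17 at 0.82, whereas Igkc stayed at 0.95. From 12 to 10 libraries Igha went from 0.83 to 0.90 and Mzb1 from 0.66 to 0.87. Irf4 went from 0.51 to 0.86 and Derl3 from 0.56 to 0.83, but Prdm1 from 0.54 to -0.32. High values with 10 libraries were not particular to plasma cell genes. Those of the B cell genes ran from -0.52 for Bcl6 to 0.82 for Cd79b, and Ighm was at 0.84. Sdc1 had a correlation with Jchain of -0.52 over 12 libraries and -0.24 over 10. Ms4a1 was at -0.91 with 12 libraries and 0.52 with 10, so its sign rested on the same 2 libraries.

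Among all genes, the 10 most like Jchain were Foxf1, Rgs6, Pdgfra, Dbn1, Slc35f1, Ednrb, Parp3, Mtss1l, Col5a1 and Tdrp, with r from 0.98 to 0.99 over 12 libraries and from 0.79 to 0.96 without the 2. Foxf1 and Pdgfra are genes of the intestinal stroma. The 10 most like Mzb1 were Camk1, Gstz1, Gm26848, Cmtm7, Zfp366, Cxcr3, Arhgap30, Mtmr4, Capn10 and the light chain segment Igkv4-63, with r from 0.90 to 0.95, and Derl3 ranked 19 at 0.88. For Pigr they were Calcb, Cd177, Oaz2, Cdh13, Lonrf2, Gpr153, Elovl1, Cpxm2, Nkx2-3 and Ripk2, with r from 0.96 to 0.98 over 12 libraries and 0.77 to 0.96 without the 2.

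Loss of Slc39a8 in the epithelium was compared next. None of the 8 members was called between Slc39a8-IEC KO and control mice over both tissues, in ileum, in colon, or for the difference between the tissues. In each of these 4 comparisons edgeR called 0 of 16558 genes, a background of 0%. The deleted gene Slc39a8 was itself not called, at -1.13 on the log2 scale (adjusted p = 0.382) over both tissues. The lack of a call for a member therefore does not show that the member was unchanged. At an unadjusted p under 0.05 over both tissues there were 641 genes, 3.87% of those tested, and 1 member, Sdc1. In ileum there were 252 such genes, in colon 385 and for the difference 169. DESeq2 called 4, 2, 0 and 1 genes in these 4 comparisons and limma-voom 1, 1, 0 and 0, none of them a member.

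The fitted differences, KO minus control, were positive for 7 of 8 members over both tissues, with a median of 0.32 on the log2 scale against 0 for all genes,. Irf4 had the largest, 0.79 (SE 0.38, unadjusted p = 0.062), then Tnfrsf17 at 0.51 (0.52), Jchain at 0.37 (0.48), Pigr at 0.36 (0.22), Mzb1 at 0.29 (0.40) and Derl3 at 0.24 (0.44). Prdm1 was at -0.39 (0.29). All 8 had an adjusted p of 0.998, and for Jchain, Tnfrsf17, Mzb1 and Derl3 the standard error was as large as the difference or larger. In colon 5 members, Jchain, Mzb1, Irf4, Tnfrsf17 and Derl3, were highest in colon KO replicate 3. Without it the colonic difference went from 0.29 to -0.09 for Jchain, from 0.52 to -0.21 for Derl3, from 0.86 to 0.16 for Mzb1 and from 1.01 to 0.22 for Irf4.

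Sdc1 differed least between libraries and had the smallest unadjusted p, 0.02. Each of the 3 KO libraries was above the 3 control libraries of its tissue. In ileum 280 to 295 CPM in KO stood against 226 to 275 CPM in control, and in colon 281 to 333 against 260 to 270 CPM. KO minus control was 0.25 (SE 0.12) on the log2 scale in ileum, 0.18 (0.12) in colon and 0.22 (0.08) over both tissues. A separation of this kind with KO higher was found for 2.13% of all genes in ileum, 6.98% in colon and 0.236% in both tissues. A permutation p for Sdc1 would only restate this separation, and for the other 7 members the exact two-sided permutation p over both tissues was 0.1 to 0.72. The largest control value, 275 CPM, and the smallest KO value, 280 CPM, of ileum differed by little, and Sdc2, Sdc3 and Sdc4 had differences of -0.03, 0.02 and 0.09.

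Tnfrsf17 was the other member separated in 1 tissue, with 0.471 to 0.913 CPM in colon KO against 0.330 to 0.384 CPM in colon control libraries, from 10 to 22 and 7 to 8 counts. In ileum its groups overlapped. For Pigr the KO mean was 1.23 times the control mean in ileum and 1.33 times in colon, with overlap in both. For no member was a difference of the genotype effect between tissues called. The largest such difference, colon minus ileum, was 1.05 (SE 0.78, adjusted p = 1) for Mzb1, and that for Jchain was -0.16 (SE 1).

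With the 10 libraries that hold muscle transcripts 5 of 16896 genes (0.0296%) were called between genotypes over both tissues, 3 (0.0178%) in ileum, and 0 in colon and for the difference between tissues. None of them was a member, and Slc39a8 was among those called over both tissues (-1.24, adjusted p = 0.0194). Across tissues KO minus control came to 0.25 (SE 0.09, adjusted p = 0.4) for Sdc1, 0.40 (0.14, adjusted p = 0.401) for Pigr, 0.38 (0.19, adjusted p = 0.547) for Jchain and -0.51 (0.21, adjusted p = 0.466) for Prdm1. Among related genes none was called between genotypes with 12 libraries. The medians over both tissues were 0.13 for 24 secretory machinery genes and 0.15 for 14 plasma cell surface and regulator genes. They were 0.34 for 10 constant regions, 0.12 for 11 B cell genes and 0.28 for 8 T cell genes. For 11 epithelial markers the median was 0.09, and 10 of them had a positive difference. Igha was at 0.96 and Igkc at 1.03 on the log2 scale, each with an adjusted p of 0.998. The smooth muscle genes had a median of -0.23.

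**Figure D5:**
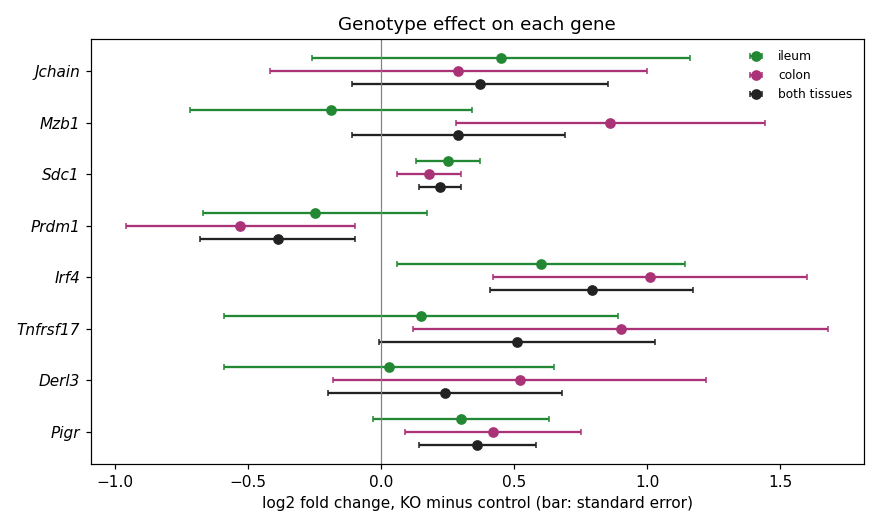
Log2 fold change of each gene, KO minus control, with its standard error, in ileum (green), colon (purple) and both tissues (black). For Sdc1 the value is 0.22 with an error of 0.08 over both tissues, and for Jchain, Mzb1, Tnfrsf17 and Derl3 the error over both tissues is as wide as the difference or wider.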

How the data were processed

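The authors aligned reads with STAR to mm10 and deposited 1 table of expected counts per gene and library, estimates that need not be whole and are not normalized. Which program made these estimates is unclear: the study's software statement names FeatureCounts for its counts, while the table calls its values expected counts and 93.67% of them are whole. The libraries were primed with oligo-dT (NEBNext Ultra II), and the same statement names uniquely mapped reads, a Gencode annotation and removal of duplicates. All 12 value columns were matched to samples by title. The 92 spike-in lines held 0 counts and were left out.

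Gene IDs were matched to GENCODE M21 (GRCm38), 51464 with the same version and 2156, Mzb1 among them, with another. Expected counts were rounded. edgeR 4.0.16 (R 4.3.3) with filterByExpr, TMM factors and glmQLFTest tested genotype with tissue as a second term, and the other comparisons in a model of the 4 groups, adjusted by Benjamini-Hochberg over 16558 genes with a threshold of 0.1. Where no other tool is named, an adjusted p is edgeR's. Each standard error was worked back from that test, as the absolute log2 fold change divided by the square root of its F value. Permutation tests used log2(CPM + 0.5). Depth limits the precision of members with few counts. Alternatives were DESeq2 1.42.0, limma-voom (limma 3.58.1), other scaling factors, filters, no rounding, a replicate block, only the libraries compared, and libraries left out. The scripts were tested on simulated counts. Figures used matplotlib 3.10.9. The members, lists and tests were chosen with earlier results of these data known. Named were all 8 members, Slc39a8, paralogs, list genes (at most 4 in each direction beside a count) and the 10 genes most like Jchain, Mzb1 and Pigr. Some single genes of the lists are not reported here. RNA was isolated per mouse per the labels, so replicates within a group are separate animals.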

Additional observations from a re-analysis of the deposited data

How the results depend on the processing

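Over 48 member comparisons and their alternatives (1087 values), 1029 kept their direction and side of the threshold, 19 lost the call, 5 gained it and 34 changed sign. The total includes comparisons between genotypes, where there was no call to lose, and fits that leave out a library of another group. All 19 lost calls were between tissues, and 10 of them were those of Irf4 in KO mice, among 23 alternatives. No member was called between genotypes under any alternative, also with 1 library left out (0 to 0). Members called lower in colon in control mice numbered 5 with DESeq2, limma-voom, all scalings and filters, 7 with the 10 libraries, and 4 to 6 with 1 library left out. In KO mice they numbered 4 or 5, the member lost being Irf4, 6 with the 10 libraries, and 1 to 6 with 1 library left out. They were 2 without ileum KO replicate 3 (Mzb1, Prdm1), 2 without colon KO replicate 1 (Prdm1, Pigr) and 1 without colon KO replicate 2 (Prdm1), from fewer samples. Of all genes, 2720, 2644 and 2406 were lower in colon in these fits, in the same order, against 3312 with no library left out. Whether members were called more often than genes at large in these fits was not tested.

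The replicate block left 5 members called in each tissue comparison and 0 between genotypes, and called 5333 genes in control and 5558 in KO mice against 5940 and 6149. Between ileum and colon libraries of the same genotype, correlations of deviations ran from -0.08 to 0.25 with the same number. With different numbers they ran from -0.21 to 0.16. These values cannot decide whether such libraries came from the same mice. The numbers are not taken as pairs because the labels do not give a pairing. Scaling by library size only moved the median of all genes between tissues by 0.22 in control and 0.27 in KO mice, and upper-quartile factors by 0.10 and 0.13.

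Uncalled values changed sign as follows, and the cause was not tested. With limma-voom Mzb1 in ileum (KO minus control) was 0.02 and Tnfrsf17 -0.20, and Tnfrsf17 between tissues in KO mice was 0.32, or 0.08 with library size only. With the replicate block Tnfrsf17 in ileum was -0.01 and the Jchain difference between tissues 0. With 1 library left out, the genotype effect over both tissues ran from -0.06 to 0.69 for Mzb1 and -0.06 to 0.47 for Derl3. In ileum it ran from -0.01 to 0.98 for Jchain, -0.48 to 0.52 for Mzb1, -0.62 to 0.09 for Prdm1, -0.50 to 0.87 for Tnfrsf17 and -0.29 to 0.42 for Derl3, and in colon from -0.09 to 0.44 for Jchain and -0.21 to 1.12 for Derl3. Its difference between tissues ran from -0.69 to 0.32 for Jchain, -0.62 to 0.20 for Prdm1, -0.37 to 0.72 for Irf4, -0.22 to 1.09 for Derl3 and -0.18 to 0.36 for Pigr. Between tissues in KO mice Sdc1 ran from -0.03 to 0.11 and Tnfrsf17 from -0.75 to 0.41. Low counts of Tnfrsf17, Derl3 and Irf4 limit what could be detected at this depth.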

Other observations

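Signals that raise Pigr in epithelial cells were compared between tissues. Of 11 such genes 7 passed the filter on low counts, and with edgeR 3 of them were lower in colon in control and 2 in KO mice, where 19.6% and 20% of all genes were. Without ileum control replicate 3 and ileum KO replicate 1, 8 could be tested, and 6 were lower in control and 4 in KO mice (22.0% and 21.7% of all genes). Relb, a subunit of the transcription factor NF-kB, was at 104 to 137 CPM in ileum and 37.7 to 49.0 CPM in colon, with log2 fold changes of -1.35 (adjusted p = 3.77e-05) in control and -1.33 (adjusted p = 4.2e-05) in KO mice. Nfkb1, another subunit, was at -0.52 (adjusted p = 0.0223) and -0.46 (adjusted p = 0.0393). Ifng, the gene of interferon gamma, was lower in control mice (-4.09, adjusted p = 0.087) but was at or under 1.28 CPM in all 12 libraries. Il17ra, Irf1, Myd88 and Tnf did not pass in either genotype with 12 libraries. With 10, Irf1 was lower in both (-0.83, adjusted p = 0.00276, and -0.82, adjusted p = 0.003), and Myd88 in control mice (-0.60, adjusted p = 0.00832). Il17a was also called lower in both, but it passed the filter only with the 10 libraries. It was at 0 CPM in every colonic library and in the ileal ones left out, and at 0.266 to 1.11 CPM in the other 4. Its call therefore follows from the filter and the choice of libraries. In ileum control replicate 3 and ileum KO replicate 1, where Pigr was lowest in ileum, 5 of the 11 genes were below the other 4 ileal libraries and 1 was above. Of all genes, 27.2% were below and 23.2% above. Among the 5, Il17a and Il17f were at 0 CPM and Ifng at 0.0425 and 0.0596 CPM there, near the floor. A link between these genes and the level of Pigr was not tested. Irf1 was at 125 and 146 CPM against 250 to 282 CPM, and Nfkb1, the one above, at 86.1 and 90.4 CPM against 63.0 to 76.0 CPM.

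Of 11 genes for plasma cell survival and class switching, 4 could be tested and none was called between tissues or genotypes. Tnfsf13 (APRIL), a ligand of Tnfrsf17, was at 9.22 to 21.9 CPM in ileum and 16.7 to 27.1 CPM in colon, with log2 fold changes of 0.49 (adjusted p = 0.292) in control and 0.26 (adjusted p = 0.588) in KO mice. Tnfsf13b (BAFF) was at 0.04 (adjusted p = 0.941) and -0.06 (adjusted p = 0.904). Il6, Il10 and Il21 were among those that did not pass the filter on low counts.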
